A study of Mus musculus with 8 samples.

Results

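The metabotropic glutamate receptor genes Grm2, Grm3, Grm4, Grm5, Grm7 and Grm8 were examined in 8 TRAP-Seq libraries made from neurons of the mouse paraventricular thalamic nucleus (PVT) that express the mu-opioid receptor (MOR). The rows of the deposited count table with one of these gene symbols were taken, and where a gene had more than 1 row the transcript with the highest total was kept. This gave 6 of the 18939 genes in the table. Each of the 6 had between 230 and 8726 counts in every library, so none was lost to low counts.

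TRAP-Seq (translating ribosome affinity purification followed by sequencing) measures RNA on tagged ribosomes, and not protein. All mice had the genotype OPRM1cre X EGFP-L10a on a C57Bl/6J background and were 8 to 12 weeks old when the experiment began. Cre was placed behind the Oprm1 coding sequence, and it switches on a ribosomal protein fused to EGFP that is pulled down with anti-GFP antibodies. A cell that used Oprm1 at any earlier time also carries the tag. The control group (4 libraries, replicates 1, 2, 5 and 6) drank 0.2% saccharin. The morphine group (4 libraries, replicates 3, 4, 7 and 8) drank morphine in 0.2% saccharin for 11 days, starting at 0.3 mg/ml and ending at 0.5 mg/ml. The dissection around the PVT was gross, and tissue of 2 mice of 1 sex was combined for each library. Each group had 2 male and 2 female libraries by their labels. Total counts lay between 31151106 and 47582947 per library.

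Marker genes were read first as a check of the labelled tissue. The mean log2 CPM (read counts scaled to library size with edgeR's TMM factors) of 8 thalamic neuron markers lay between 7.23 and 7.96 in the 8 libraries, and Oprm1 had 463 to 1307 counts. Oprm1, whose use marks the tagged cells, stood at 32.3, 29.4, 16.8 and 22.7 CPM in control replicates 1, 2, 5 and 6 and at 15.9, 14.0, 17.6 and 18.4 CPM in morphine replicates 3, 4, 7 and 8. All controls but replicate 5 lay above every morphine library, and the part of this in the receptor values was not tested. Markers of other cells were present as well, and no marker was at 0 in all libraries. Control replicate 5 is labelled female, but the CPM of 4 Y-linked genes was 28.7% to 35.8% of the male mean there, against 2 counts or fewer per gene in the remaining female libraries. Comparisons of the sexes are therefore given with and without this library.

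Metabotropic glutamate receptors are G protein-coupled receptors that respond to the glutamate released at excitatory synapses. Group I receptors, such as Grm5, couple to Gq, release calcium from internal stores and sit mostly beside the postsynaptic density. Group II (Grm2 and Grm3) and group III (Grm4, Grm7 and Grm8) couple to Gi and Go, lower cyclic AMP and reduce transmitter release from nerve terminals. Neurons of the midline thalamus are glutamatergic and receive glutamatergic input from cortex, so both arms of this receptor family bear on them.

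Grm5 was listed as 2 RefSeq transcripts, NM_001143834 and NM_001081414. In GENCODE M21 on GRCm38 the transcript of the first has an exon of 96 bases (exon 8, chr7:88116193-88116288, plus strand) that the second lacks. It encodes 32 residues of the intracellular tail and tells the splice forms known as mGlu5b and mGlu5a apart. It is printed because the counts could not be assigned to either form.

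Grm5 exon 8: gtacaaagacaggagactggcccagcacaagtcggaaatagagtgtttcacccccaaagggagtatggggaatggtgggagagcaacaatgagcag

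The counts of the 2 rows differed by only 1 to 6 per library, of 4137 to 8726 counts on the row that was kept. The table thus does not tell the splice forms apart, and the values below are those of Grm5 as a gene.

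The RefSeq table (GRCm38.p6) had promoter windows, from 250 bases before to 50 bases after a start, for Grm2, Grm3, Grm7 and Grm8. The windows of the group II pair are printed because these genes share a ligand class and a coupling. Capitals mark GC boxes (GGGCGG or its complement CCGCCC, both strands searched).

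Grm2 promoter, chr9:106656060-106656359, minus strand: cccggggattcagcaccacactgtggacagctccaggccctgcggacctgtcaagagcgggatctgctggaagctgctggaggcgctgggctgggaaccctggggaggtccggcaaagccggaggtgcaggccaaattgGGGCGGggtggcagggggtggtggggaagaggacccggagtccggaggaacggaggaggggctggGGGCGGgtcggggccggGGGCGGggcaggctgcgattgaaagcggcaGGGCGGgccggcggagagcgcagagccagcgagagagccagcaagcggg

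Grm3 promoter, chr5:9725303-9725602, minus strand: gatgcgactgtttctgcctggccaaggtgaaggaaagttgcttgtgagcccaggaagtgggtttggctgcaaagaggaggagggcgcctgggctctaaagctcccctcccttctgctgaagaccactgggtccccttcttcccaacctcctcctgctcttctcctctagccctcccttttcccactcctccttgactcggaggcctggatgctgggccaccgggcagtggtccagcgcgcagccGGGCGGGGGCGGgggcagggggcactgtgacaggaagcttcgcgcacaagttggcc

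The Grm2 window held 4 GC boxes, 22 CpG dinucleotides and 72% G and C. That of Grm3 held 2 GC boxes, next to each other without overlap, with 11 CpG dinucleotides and 63.7% G and C. At least 1 GC box was found in 35.7% of the 32851 promoter windows of the table and at least 4 in 5.49%, and the median G and C content was 52.7%. Both Grm7 windows had 1 GC box, and of the 3 Grm8 windows 1 had a single GC box. No window of the 4 genes held TATAAA (13.6% of all windows, either strand) or the cyclic AMP response element TGACGTCA (1.79%). These matches describe letters in the windows and were not tested against the counts.

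Levels of the receptors were ranked per kilobase of transcript, with GENCODE transcript lengths. With the 4500 bases of the transcript that was kept, Grm5 (chromosome 7, 87584168 to 88134907) was highest at 33.0 ± 8.54 CPM per kb (SD, n = 8). Grm4 (chromosome 17, 27422387 to 27521403), a group III receptor of nerve terminals, followed at 18.9 ± 2.37 CPM per kb (SD, n = 8). Grm7 (chromosome 6, 110645581 to 111567230), the group III receptor of the active zone that needs the most glutamate to respond, was at 9.93 ± 1.41 CPM per kb (SD, n = 8).

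Both group II genes had lower means. Grm3 (chromosome 5, 9485541 to 9725170), which neurons and astrocytes use, was at 7.97 ± 3.17 CPM per kb (SD, n = 8). Grm2 (chromosome 9, 106643095 to 106656082), an autoreceptor of glutamatergic terminals, was at 7.32 ± 1.57 CPM per kb (SD, n = 8). Grm8 (chromosome 6, 27275119 to 28135178), a high-affinity group III receptor, was lowest at 2.73 ± 0.903 CPM per kb (SD, n = 8).

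Neighbours in this order were compared within libraries with an exact two-sided sign-flip permutation test, adjusted over the 5 pairs. Grm5 exceeded Grm4 in 8 of 8 libraries by a mean ratio of 1.71 (exact adjusted P = 0.0130), Grm4 exceeded Grm7 in 8 of 8 by 1.91 (exact adjusted P = 0.0130), and Grm2 exceeded Grm8 in 8 of 8 by 2.73 (exact adjusted P = 0.0130). Each of these rests on an unadjusted P of 0.0078, the smallest that 8 libraries allow. Grm7 was above Grm3 in 5 of 8 libraries (ratio 1.32, exact adjusted P = 0.137) and Grm3 above Grm2 in 3 of 8 (ratio 1.04, exact adjusted P = 0.828), so neither of these pairs differed beyond the spread between libraries. Grm7 and Grm2 are not neighbours in this order, and that pair was not tested per kilobase of transcript. The top of the order depended on the length used, and the near-equal counts of the Grm5 rows do not tell which length applies. Per kilobase of the longer Grm5 transcript (8047 bases in place of 4500), Grm5 was at 18.5 CPM per kb and Grm4 lay above it in 5 of 8 libraries (ratio 1.04, exact adjusted P = 0.771), which were the 4 controls and morphine replicate 3. The means were then 19.5 for Grm4 and 15 for Grm5 in the control and 18.3 and 22.0 in the morphine group. Per kilobase of coding sequence, Grm5 (41.2) and Grm4 (22.5) stayed first and Grm8 (3.87) last, and Grm7 (15.2) was above Grm2 in 7 of 8 libraries (exact adjusted P = 0.0488). The mean of Grm2 (13.2) was then above that of Grm3 (9.20), in 5 of 8 libraries, which did not pass the test (exact adjusted P = 0.0625). In the control means Grm2 was above Grm3 with both lengths (7.07 and 6.46 per kb of transcript, 12.7 and 7.46 per kb of coding sequence), and in the morphine means Grm3 was above Grm2 per kb of transcript (9.48 and 7.56) and below it per kb of coding sequence (10.9 and 13.6).

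**Figure D1:**
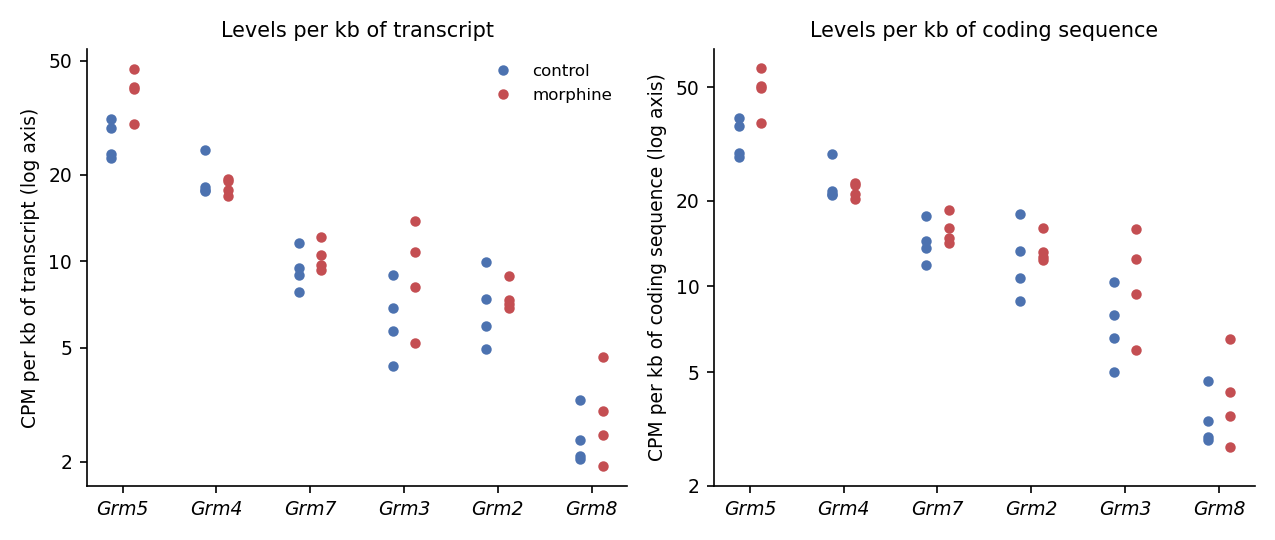
Levels of the 6 genes in each library, as CPM per kb of transcript (left) and per kb of coding sequence (right), on log axes, with control libraries in blue and morphine libraries in red. Grm5, Grm4 and Grm8 keep their ranks in both panels, and the means of Grm2 and Grm3, which did not differ beyond the spread between libraries in either panel, exchange theirs when both groups are pooled.

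The main comparison asked whether chronic morphine changed the amount of each receptor RNA on ribosomes of these cells. After adjustment over all 18939 genes, edgeR's quasi-likelihood test called 0 of the 6 genes at a threshold of 0.05, and 0.195% of all genes. DESeq2 called 1 of the 6, Grm5, against 3.29% of the genes it gave an adjusted P value. Unadjusted, the edgeR P value of 1 of the 6, again Grm5, passed this threshold, as did that of 12.1% of all genes. The groups did not separate in any of the 6, while in 6.55% of all genes every library of one group lay above every library of the other. A log2 fold change above 0 was seen in 5 of the 6 and in 51.4% of all genes, whose median was 0.0088.

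Grm5, the group I receptor, had 106, 141, 103 and 132 CPM in control replicates 1, 2, 5 and 6. It had 135, 210.5, 183 and 179 CPM in morphine replicates 3, 4, 7 and 8. Morphine replicates 4, 7 and 8 lay above all controls, and morphine replicate 3 lay within their range, below control replicate 2. The means were 121 ± 18.8 CPM in the control group and 177 ± 31.1 CPM in the morphine group (SD, n = 4 each). On the log2 scale this was a change of 0.55 (SE 0.15, where SE is the standard error, 95% interval 0.23 to 0.88, edgeR adjusted P = 0.160), a fold of 1.47. DESeq2 gave 0.56 with an adjusted P value of 0.0285, and the exact two-sided permutation P value was 0.0571, with 0.029 the smallest that 4 libraries against 4 allow. The call of Grm5 therefore depended on the tool. Leaving out single libraries gave log2 fold changes of 0.46 to 0.66 and edgeR adjusted P values of 0.0691 to 0.451.

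**Figure D2:**
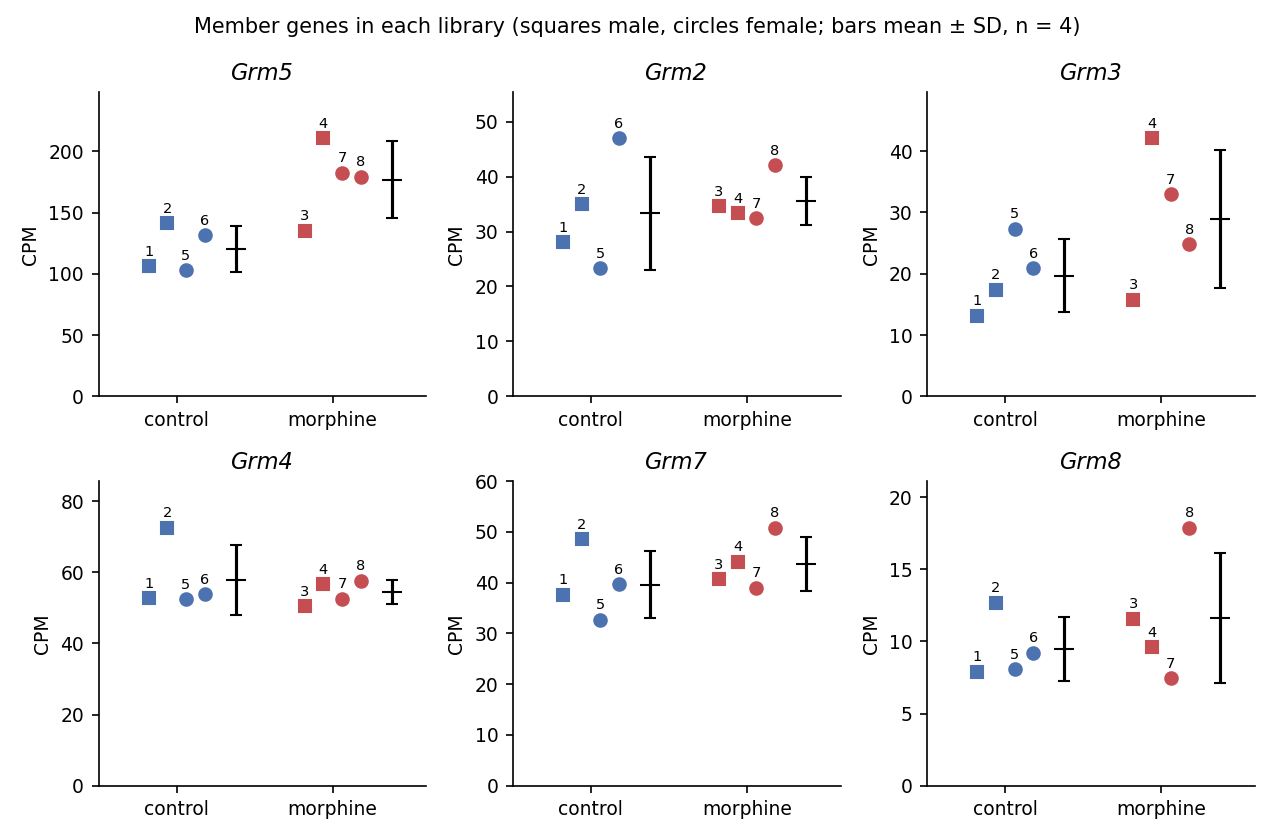
CPM of each gene in the 4 control (blue) and 4 morphine (red) libraries, numbered by replicate, with squares for male and circles for female libraries and black bars for the mean ± SD. In Grm5, 3 of 4 morphine libraries lie above every control, and in the other genes the groups overlap more widely.

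In the group II pair, Grm3, the subtype for which the dipeptide N-acetylaspartylglutamate (NAAG) is a known agonist, had 13.2, 17.4, 27.3 and 20.9 CPM in control replicates 1, 2, 5 and 6. It had 15.8, 42.1, 33.0 and 24.8 CPM in morphine replicates 3, 4, 7 and 8. Morphine replicates 4 and 7 lay above all controls, and morphine replicate 3 lay below 3 of the 4 controls. The means were 19.7 ± 5.98 CPM and 28.9 ± 11.2 CPM (SD, n = 4 each), and the log2 fold change was 0.55, the same size as that of Grm5 but with a larger SE (0.28, 95% interval -0.066 to 1.17, edgeR adjusted P = 0.475). The exact two-sided permutation test gave P = 0.229, and the difference was smaller than the SD of the morphine group. Single libraries decided its size, with 0.31 without morphine replicate 4 and 0.75 without morphine replicate 3 (edgeR adjusted P = 0.747 and 0.217).

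Grm2 had 28.1, 34.9, 23.3 and 46.9 CPM in control replicates 1, 2, 5 and 6 and 34.6, 33.3, 32.5 and 42.0 CPM in morphine replicates 3, 4, 7 and 8. All morphine libraries lay inside the range of the controls. The means were 33.3 ± 10.3 and 35.6 ± 4.37 CPM (SD, n = 4 each), with a log2 fold change of 0.097 (SE 0.19, 95% interval -0.32 to 0.51, edgeR adjusted P = 0.870). It was -0.054 without control replicate 5, 0.0074 without morphine replicate 8, 0.012 without control replicate 1 and 0.29 without control replicate 6. An exon of Grm2 overlaps Gm28111 on the other strand, and an exon of Grm7 overlaps Gm20387 in the same way. The sources used here do not state whether counting used the strand, so reads of these antisense genes may be included.

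Of the group III genes, Grm4 had 52.8, 72.6, 52.4 and 53.9 CPM in control replicates 1, 2, 5 and 6 and 50.5, 56.7, 52.6 and 57.6 CPM in morphine replicates 3, 4, 7 and 8. Apart from control replicate 2, the 7 libraries lay between 50.5 and 57.6 CPM, and the groups overlapped. Between the groups the log2 fold change was -0.092 (SE 0.12, 95% interval -0.35 to 0.17, edgeR adjusted P = 0.784). Without control replicate 2 it was 0.036. In this fit with condition alone, a change of Grm4 in either direction by the size seen in Grm5 lay outside the interval. With the telencephalic, choroid plexus and astrocyte score it was -0.081, -0.23 and -0.21 (SE 0.19, 0.21 and 0.095). No interval was computed with the scores.

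Grm7 had 37.6, 48.6, 32.7 and 39.7 CPM in control replicates 1, 2, 5 and 6 and 40.7, 44.2, 39.0 and 50.8 CPM in morphine replicates 3, 4, 7 and 8, with overlap in all but the highest morphine library. Its change was 0.14 on the log2 scale (SE 0.13, 95% interval -0.15 to 0.43, edgeR adjusted P = 0.677), and ranged from 0.044 without control replicate 5 and 0.059 without morphine replicate 8 to 0.25 without control replicate 2. Grm8, the lowest per kilobase, had 7.90, 12.7, 8.06 and 9.20 CPM in control replicates 1, 2, 5 and 6 and 11.6, 9.60, 7.47 and 17.9 CPM in morphine replicates 3, 4, 7 and 8. Morphine replicate 7 was the lowest and morphine replicate 8 the highest of all 8 libraries, so the whole range lay inside the morphine group. On the log2 scale the change of Grm8 was 0.30 (SE 0.25, 95% interval -0.25 to 0.85, edgeR adjusted P = 0.677), with 0.014 without morphine replicate 8 and 0.48 without control replicate 2.

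The spread over libraries was read within groups first. The coefficient of variation of CPM in the control and morphine libraries was 30.4% and 38.9% for Grm3, 30.8% and 12.3% for Grm2, 23.5% and 38.6% for Grm8, 16.9% and 6.23% for Grm4, 16.7% and 12% for Grm7, and 15.6% and 17.6% for Grm5. Over all 8 libraries the coefficient of variation of CPM was 39.8% for Grm3, 33.0% for Grm8, 25.8% for Grm5, 21.5% for Grm2, 14.3% for Grm7 and 12.6% for Grm4, a value that also holds the difference between the group means, and among the controls Grm5 had the lowest. The highest library was 3.19 times the lowest in Grm3 and 1.44 times in Grm4. Single libraries recurred at the ends. Control replicate 2 was the highest control for Grm4, Grm5, Grm7 and Grm8, morphine replicate 8 the highest morphine library for Grm2, Grm4, Grm7 and Grm8, and morphine replicate 4 for Grm3 and Grm5.

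The make-up of the receptor set was also read within each library, as the share of the CPM summed over the 6 genes, a measure chosen after the values had been seen and therefore given without a test. It uses no lengths and compares libraries, not genes. Grm5 held 43.2%, 43.1%, 41.8% and 43.6% of this sum in control replicates 1, 2, 5 and 6 and 46.9%, 53.1%, 52.6% and 48.1% in morphine replicates 3, 4, 7 and 8. The control shares lay within a narrow range and the morphine shares all above it, morphine replicate 3 included. Grm4 held 21.5%, 22.2%, 21.2% and 17.8% in the controls and 17.5%, 14.3%, 15.2% and 15.5% in the morphine libraries, in the same order, and these groups did not overlap either. In the other four the groups overlapped, with 13.1% to 15.3% in the control and 11.1% to 14.1% in the morphine libraries for Grm7, 5.31% to 11.1% and 5.48% to 10.6% for Grm3, 9.44% to 15.5% and 8.41% to 12% for Grm2, and 3.04% to 3.87% and 2.15% to 4.80% for Grm8. How often such shares separate in other sets of genes was not computed. In CPM the groups overlapped in all 6 genes. Shares add up to a fixed total, so a higher share of one gene lowers the shares of the others. The summed CPM of the 6 genes was 246 to 327 in the control and 288 to 396 in the morphine libraries, with overlap.

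Marker scores of other cells are given here because pyramidal neurons, striatal neurons and astrocytes are also known to express Grm5 and Grm3. The score (mean log2 CPM) of 13 telencephalic pyramidal neuron markers lay between 3.88 and 5.54 in the control and between 4.94 and 6.11 in the morphine libraries, with 11 of 13 markers above 0 in log2 fold change and a median of 0.88. The score of 13 choroid plexus markers was -0.78 to 1.76 in the control and 1.96 to 3.34 in the morphine libraries, without overlap, with 13 of 13 above 0 and a median of 2.08. That of 13 astrocyte markers was 2.36 to 3.79 and 2.97 to 3.82, with 10 of 13 above 0 and a median of 0.39. After adjustment edgeR called 0 genes of these 3 lists. Without adjustment 8, 11 and 2 of them passed 0.05 (6 of the 8 telencephalic ones above 0), against 12.1% of all genes. DESeq2 called 5, 8 and 0, against 3.29% of the genes it gave an adjusted P value. Of the 5 telencephalic calls of DESeq2, Cux2 was below 0 (log2 fold change -0.32). In bulk libraries, fewer cells of a type and less RNA per cell cannot be told apart.

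In the remaining marker lists the scores of the groups overlapped. Of 8 oligodendrocyte markers 8 were above 0 (median 0.56), with scores of 3.13 to 6.51 in the control and 5.49 to 6.87 in the morphine libraries. Of 7 striatal neuron markers 7 were above 0 (median 0.91), and their score was 6.79 in morphine replicate 4 and 6.43 in morphine replicate 7, against 3.71 and 2.73 in morphine replicates 3 and 8 and 3.99 to 5.44 in the controls. Morphine replicates 4 and 7 were also the libraries with the most Grm3 and the most Grm5, while morphine replicate 8, with the lowest striatal score, had 179 CPM of Grm5, close to the 183 CPM of morphine replicate 7. Of 8 thalamic neuron markers 0 were above 0 (median -0.24), with scores of 7.66 to 7.96 in the control and 7.23 to 7.87 in the morphine libraries. Medial habenula markers (5 of 8 above 0, median 0.12) and microglia markers (3 of 7, median -0.026) overlapped as well, with scores of 3.17 to 3.73 and -1.57 to 0.22 in the control and 3.46 to 3.81 and -0.82 to -0.26 in the morphine libraries.

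**Figure D3:**
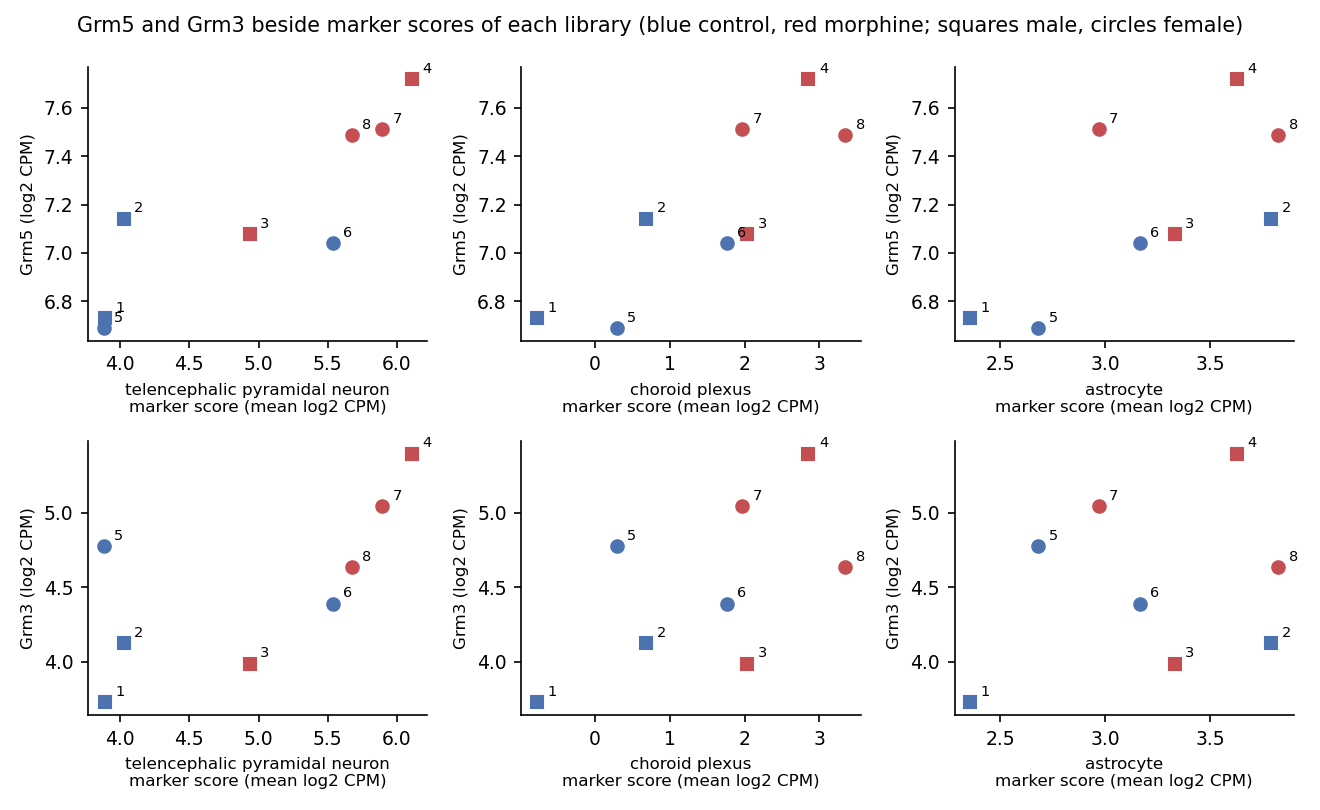
Log2 CPM of Grm5 (top) and Grm3 (bottom) on the y axis against the mean log2 CPM of 3 marker lists on the x axis, 1 point per library, numbered by replicate, blue for control and red for morphine, squares for male and circles for female. Morphine replicate 3, with the least Grm5 and Grm3 of the morphine group, also has the lowest telencephalic score of that group (4.94), and control replicate 5 has 27.3 CPM of Grm3 at a score of 3.88.

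Adding a marker score to the edgeR model changed the fold changes of the receptors. With the telencephalic score, the log2 fold change of Grm5 was 0.22 (SE 0.20, edgeR adjusted P = 0.800) and that of Grm3 was -0.012 (SE 0.46, edgeR adjusted P = 1.00). With the choroid plexus score, Grm5 was at 0.23 (SE 0.23) and Grm3 at 0.14 (SE 0.49), and with the astrocyte score Grm5 was at 0.44 (SE 0.14) and Grm3 at 0.54 (SE 0.33). The estimate for Grm5 was above 0 with all 3 scores, but smaller and with a larger SE with the telencephalic and choroid plexus scores. The log2 fold change of Grm2 was below 0 with each score (-0.28, -0.46 and -0.062 with the telencephalic, choroid plexus and astrocyte score). Scores and condition move together in these 8 libraries, and the part of other cells in the receptor values was not tested.

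**Figure D4:**
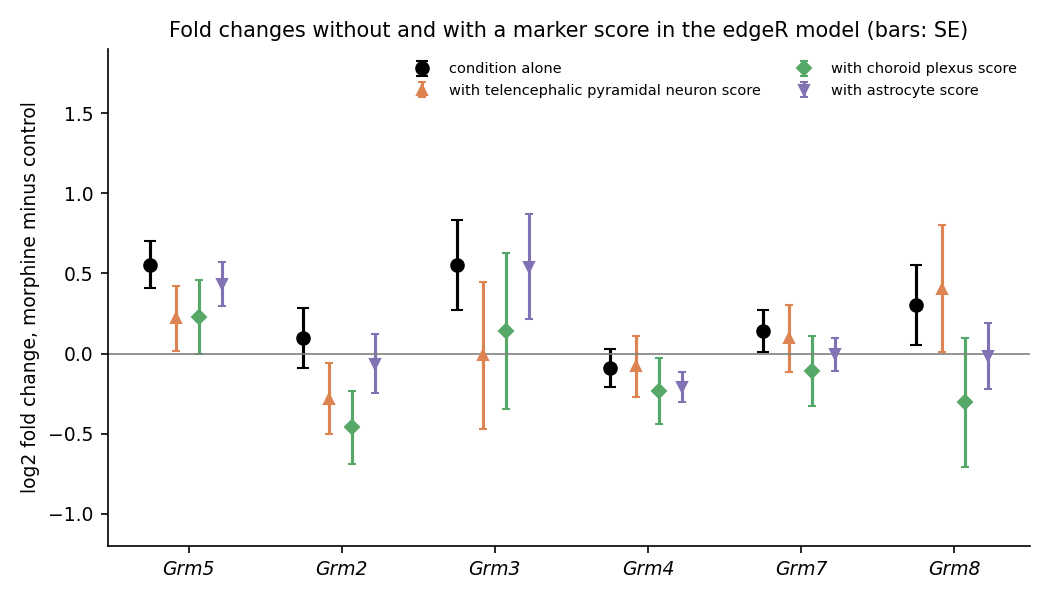
Log2 fold change (morphine minus control, y axis) of each gene from edgeR with condition alone (black) and with a telencephalic (orange), choroid plexus (green) or astrocyte (purple) marker score in the model, bars showing the standard error. Grm5 goes from 0.55 to 0.22 and 0.23 with the telencephalic and choroid plexus scores, and Grm3 from 0.55 to -0.012 and 0.14.

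Genes that act with the receptors were read from 5 lists. Of 13 scaffold and partner genes, 1 was called by edgeR (0.195% of all genes were), with 7 of 13 above 0 and a median log2 fold change of 0.072. Unadjusted, 2 passed 0.05 (12.1% of all genes), and DESeq2 called 2 (3.29% of the genes it gave an adjusted P value). In 1 the groups did not overlap (6.55% of all genes). The gene that edgeR called was Homer3, an adaptor that binds the tail of group I receptors and links them to the postsynaptic scaffold. It had 4.90, 5.74, 6.98 and 4.94 CPM in control replicates 1, 2, 5 and 6 and 8.54, 17.6, 13.5 and 16.7 CPM in morphine replicates 3, 4, 7 and 8. The groups did not overlap, with morphine replicate 3 the lowest of its group, as in Grm5.

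The change in Homer3 was 1.32 on the log2 scale (SE 0.22, edgeR adjusted P = 0.0474). It was 1.14 with the telencephalic and 1.24 with the astrocyte score in the model. When single libraries were left out it was 1.20 to 1.5, and only the fit without morphine replicate 3 (adjusted P = 0.0140) called it, and of 12 other settings 5 called it, with adjusted P values from 5.73e-06 (DESeq2) to 1.00 (choroid plexus score, log2 fold change 1.00). The related adaptors Homer1 and Homer2 were not called, with Homer1 at 128 CPM in the control and 169.5 CPM in the morphine group and Homer2 at 135 and 144 CPM. Grasp, also known as Tamalin, a scaffold for group I receptors, had a log2 fold change of 1.06 (SE 0.27, edgeR adjusted P = 0.147, DESeq2 adjusted P = 0.00900). It had 5.15 to 7.28 CPM in the controls, and of the morphine libraries only replicate 3 (6.63 CPM) lay in this range. With the telencephalic, choroid plexus and astrocyte score in the model, Grasp was at 0.33, 0.65 and 0.98 on the log2 scale.

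No transduction gene was called by edgeR. Of 8 genes downstream of group I receptors, edgeR and DESeq2 called 0 (median log2 fold change 0.10), and 1 had an unadjusted P value under 0.05, Dagla, which makes the endocannabinoid 2-arachidonoylglycerol. Dagla had a log2 fold change of 0.41 (SE 0.15, edgeR adjusted P = 0.306), and Plcb4, a phospholipase C of thalamic neurons, of -0.29 (SE 0.17, edgeR adjusted P = 0.551). Plcb4 turned sign with the telencephalic (0.077) and choroid plexus (0.24) score, and was at -0.046 with the astrocyte score and -0.16 without control replicate 5. With the telencephalic, choroid plexus and astrocyte score in the model, Dagla was at 0.33, 0.059 and 0.23. DESeq2 called 1 of 9 genes downstream of groups II and III, against 3.29% of the genes it gave an adjusted P value. In edgeR 0 of the 9 were called, and their median was 0.12. Unadjusted, 3 above and 1 below 0 passed 0.05, as did 12.1% of all genes.

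The gene that DESeq2 called was Kcnj3, a subunit of G protein-gated potassium channels. It had 54.6, 57.3, 59.8 and 61.6 CPM in control replicates 1, 2, 5 and 6 and 69.4, 77.0, 71.4 and 76.9 CPM in morphine replicates 3, 4, 7 and 8, with no overlap. On the log2 scale it differed by 0.34 (SE 0.085, edgeR adjusted P = 0.143, DESeq2 adjusted P = 0.00927). Kcnj6, which forms channels with it, had a log2 fold change of 0.46 (SE 0.14, edgeR adjusted P = 0.205). With the telencephalic, choroid plexus and astrocyte score in the model, Kcnj3 was at 0.24, 0.18 and 0.31 and Kcnj6 at 0.14, 0.092 and 0.40. Of 5 desensitization genes edgeR and DESeq2 called 0 (1 with an unadjusted edgeR P value under 0.05, as in 12.1% of all genes), 1 was above 0 and the median was -0.13. Arrb1, a beta-arrestin that uncouples receptors, went from 535 to 455 CPM (log2 fold change -0.23, SE 0.10, edgeR adjusted P = 0.379), and the receptor kinase Grk5 from 30.3 to 25.5 CPM (edgeR adjusted P = 0.595). The log2 difference of Grk5 was -0.25, and it was -0.50 with the telencephalic and -0.15 with the astrocyte score in the model, and -0.11 without morphine replicate 8.

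Of 13 genes of glutamate and NAAG supply and clearance edgeR called 0 (0.195% of all genes), and 3 passed 0.05 unadjusted (12.1% of all genes). DESeq2 called 1 of the 13, against 3.29% of the genes it gave an adjusted P value. Of the 13, 8 were above 0 and the median was 0.023. Slc17a7, the vesicular glutamate transporter VGLUT1 of cortical and hippocampal neurons, had 78.1, 115, 96.8 and 193 CPM in control replicates 1, 2, 5 and 6 and 174, 365, 215 and 316 CPM in morphine replicates 3, 4, 7 and 8. Only control replicate 6 and morphine replicate 3 overlapped, for a log2 fold change of 1.15 (SE 0.29, edgeR adjusted P = 0.142, DESeq2 adjusted P = 0.00482). Slc17a7 is also 1 of the telencephalic markers, and its log2 fold change was 0.29, 0.056 and 0.85 with the telencephalic, choroid plexus and astrocyte score in the model. Slc17a6, the vesicular transporter VGLUT2 of thalamic neurons, had 283 CPM in the control and 279 CPM in the morphine group. Slc1a1, the neuronal glutamate transporter, went from 64.3 to 94.0 CPM (log2 fold change 0.55, edgeR adjusted P = 0.226). Its log2 fold change was 0.51, 0.075 and 0.34 with the telencephalic, choroid plexus and astrocyte score.

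**Figure D5:**
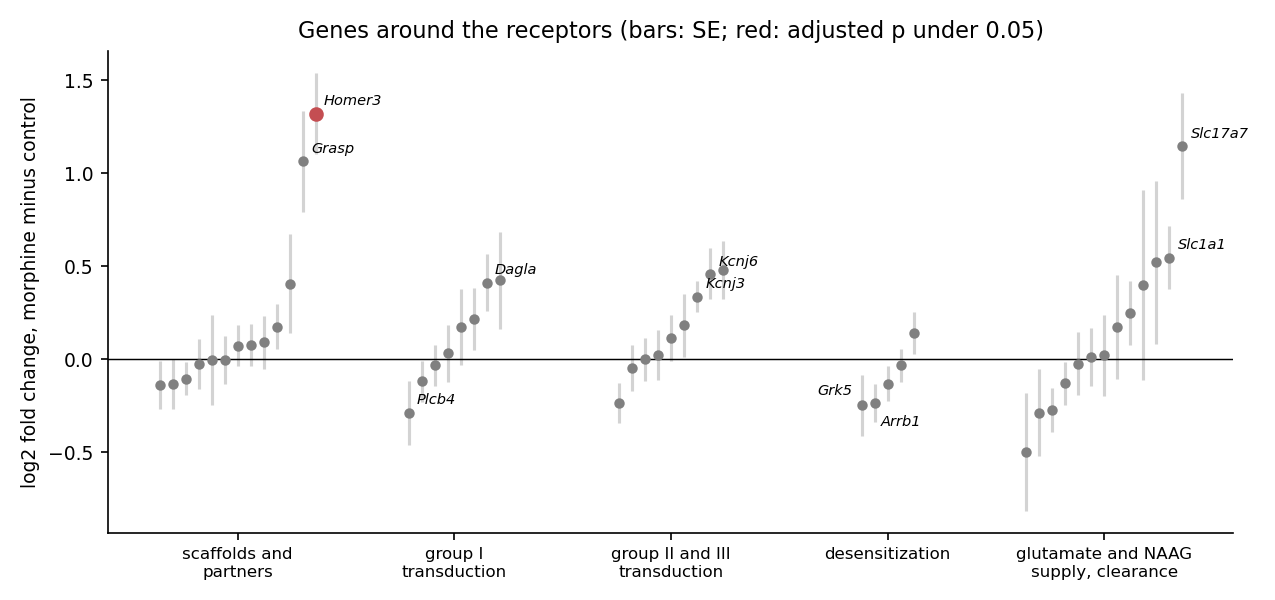
Log2 fold changes (morphine minus control, y axis) of the genes in 5 lists around the receptors, ordered by size within each list, with bars for the standard error and red for an edgeR adjusted P value under 0.05. Homer3 at 1.32 is the only red point, and the 2 genes of lowest P value in each list are named.

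The sexes were compared in an edgeR model that also held condition. It called 0 of the 6 genes and 0.00528% of all genes (1 gene), DESeq2 called 0 of the 6, and each member had an edgeR adjusted P value of 1.00. Female minus male, the log2 difference was 0.33 for Grm3 (SE 0.26) and 0.14 for Grm2 (SE 0.19), and lay between -0.099 and 0.0064 for the other four. Without control replicate 5, that of Grm3 was 0.17 and that of Grm2 was 0.30, and the other four lay between -0.072 and 0.087, with Grm5 at 0.065 in place of -0.0042. In the control libraries Grm3 averaged 15.3 CPM in males and 24.1 CPM in females (20.9 CPM in the single library left without control replicate 5), and in the morphine libraries 28.9 CPM in both sexes, but the 2 male morphine libraries stood at 15.8 and 42.1 CPM. Without morphine replicate 4, the log2 fold change of Grm3 between the sexes was 0.74 (edgeR adjusted P = 0.409).

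The interaction of sex with morphine rests on 2 libraries per sex and condition. It was called in 0 of the 6 genes and in 0% of all genes by edgeR, in 0 of the 6 by DESeq2, and no member had an unadjusted P value under 0.05. The interaction on the log2 scale was -0.66 for Grm3 (SE 0.51, 95% interval -1.77 to 0.45) and 0.52 for Grm8 (SE 0.50, 95% interval -0.57 to 1.61), and lay between -0.022 and 0.33 in the other four. Without control replicate 5 it was -0.45 for Grm3, -0.44 for Grm2 in place of -0.022, and -0.023 for Grm5 in place of 0.14, and lay between 0.20 and 0.43 in the other three. Single libraries decided both larger values. The unadjusted P value passed 0.05 for Grm3 without morphine replicate 3 (-1.2, edgeR unadjusted P = 0.0075, adjusted P = 1.00) and for Grm8 without morphine replicate 7 (0.99, edgeR unadjusted P = 0.022, adjusted P = 1.00), and the sign turned for Grm3 without morphine replicate 4 (0.21) and for Grm8 without morphine replicate 8 (-0.25). The intervals of Grm3 and Grm8 hold differences larger than any fold change of the 6 genes.

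For each receptor, the 3 genes with the most similar log2 CPM over the 8 libraries were listed among 10736 genes with a mean of at least 5 CPM, by Pearson's r and as a description only. The points share 1 tissue and differ in depth and in marker scores, and with 8 points and many genes high values of r arise readily. For Grm5 these were Icam5 (r = 0.996), an adhesion molecule of telencephalic neurons, D3Bwg0562e (r = 0.989) and the M1 muscarinic receptor Chrm1 (r = 0.989). Icam5 went from 13.7 to 41.9 CPM and Chrm1 from 23.0 to 64.5 CPM between the groups, wider than Grm5 itself. For Grm3 they were Ubqln4 (r = 0.969), Vgll4 (r = 0.965) and Arhgap20 (r = 0.958), and for Grm2 they were Sulf1 (r = 0.940), Crhbp (r = 0.932), which encodes a binding protein of corticotropin-releasing hormone, and Dennd2a (r = 0.932).

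For the group III genes the most similar were 6430571L13Rik (r = 0.987), Ppil1 (r = 0.983) and St6galnac6 (r = 0.979) for Grm4, and Ubac2 (r = 0.989), H13 (r = 0.988) and Entpd6 (r = 0.986) for Grm7. Grm8 was closest to Chrnb2 (r = 0.983), the beta-2 subunit of nicotinic receptors, Tmx4 (r = 0.975) and Disp2 (r = 0.973). No gene appeared for more than 1 of the 6 receptors.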

How the data were processed

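TRAP RNA of 8 libraries was sequenced by the authors (NEBNext directional kit, paired ends, mm10 per the labels). The authors deposited whole-number read counts per RefSeq transcript, without normalization, for 24488 transcripts of 18939 genes. Their methods describe Salmon, tximport and DESeq2, but in the deposited table transcripts of a gene share reads, so it is not the tximport matrix, and the counter behind it is not given in the sources used here. All columns were used (0 without a sample). The transcript with the highest total stood for each gene.

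The counts were TMM-normalized and tested with edgeR 4.0.16 (quasi-likelihood, R 4.3.3) over all genes with a count, with condition in the model (sex and interaction in separate models) and Benjamini-Hochberg adjustment. A gene counts as called where its adjusted P value is below 0.05. CPM used TMM library sizes, and log2 CPM a prior count of 2. Exact permutation tests added 0.5 CPM and enumerated 70 arrangements of libraries, and sign-flip tests enumerated 256 sign patterns (scipy 1.17.1). Alternatives were DESeq2 1.42.0, limma-voom (limma 3.58.1), other factors and filters, sex or a marker score in the model, summed transcripts, each library left out and other transcript lengths. Coding length was added after the data had been seen. The tests were checked on simulated counts. Figures were drawn with matplotlib 3.10.9.

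The members and lists were chosen with earlier results of these data known. Named genes are the 6 members, called genes of the 5 lists, the 2 genes of lowest P value in each list and the 3 most similar genes per member. Homer1, Homer2, Slc17a6 and Cux2 were named after their values were seen. The labels call the libraries biological replicates, each a pool of 2 mice, and P values measure the spread between these pools. Total counts were 31151106 to 47582947 per library, PCR copies are not marked, and relative counting error is largest in Grm8 (230 to 870 counts). Libraries of unpurified tissue were not analysed here. Marker lists were thalamic, telencephalic pyramidal and striatal neurons, medial habenula, choroid plexus, astrocytes, oligodendrocytes and microglia. Promoters came from RefSeq (GRCm38.p6) and gene models and lengths from GENCODE M21 (GRCm38), matched for all 6 members.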

Additional observations from a re-analysis of the deposited data

Results flagged for a closer look

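Grm4 stood at 72.6 CPM in control replicate 2, while the other 3 control libraries lay between 52.4 and 53.9 CPM. The gap to the nearest of them was 0.926 of the range of the group, above Dixon's critical value for 4 samples. In all, 32 groups of 4 libraries were examined in this way, and chance singles out about 1 in 20. Without control replicate 2, the log2 fold change of Grm4 between morphine and control was 0.036 in place of -0.092, and it was not called either way.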

How the results depend on the processing

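No paired analysis was possible because the groups share no replicate numbers. DESeq2 called 1 member and the other settings run called 0, also with each library left out (0 to 0). Over all genes, 37 were called, against 502 with DESeq2, 23 with limma-voom, 14 with filterByExpr, 15 with at least 10 counts in every library, 110 with sex in the model, 22 with summed transcripts, 1 with the telencephalic score, 0 with the choroid plexus score (619 unadjusted), 0 with the astrocyte score (1680 unadjusted) and 0 to 77 with each library left out. It was 0 without morphine replicate 4 (1697 unadjusted) and without morphine replicate 8 (1664 unadjusted). Between the sexes 1 gene was called, against 21 with DESeq2, 0 with filterByExpr (495 unadjusted) and 0 to 5 with each library left out. For the interaction edgeR called 0 (325 unadjusted), DESeq2 4, and 0 to 5 with each library left out.

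The log2 fold change between morphine and control changed sign for Grm2 with the telencephalic (-0.28), choroid plexus (-0.46) and astrocyte (-0.062) score, for Grm3 with the telencephalic score (-0.012), for Grm7 with the choroid plexus (-0.11) and astrocyte (-0.0049) score, for Grm8 with the same scores (-0.30 and -0.014), and for Plcb4 with the telencephalic (0.077) and choroid plexus (0.24) score. With each library left out it was -0.054 to 0.29 for Grm2 and -0.15 to 0.036 for Grm4. Between the sexes it was then -0.091 to 0.30 for Grm2, -0.16 to 0.028 for Grm4, -0.13 to 0.12 for Grm5, -0.20 to 0.027 for Grm7 and -0.35 to 0.21 for Grm8. The interaction was -0.44 to 0.55 for Grm2, -1.2 to 0.21 for Grm3, -0.14 to 0.50 for Grm5 and -0.25 to 0.99 for Grm8. It kept its sign but also moved for Grm4 (0.031 to 0.47) and Grm7 (0.13 to 0.50). The causes were not tested. Grm5 kept its direction in all settings run (0.22 to 0.66). Slc17a7 was also called without control replicate 6 (adjusted P = 0.0403) and Grasp without morphine replicate 3 (adjusted P = 0.0315). Grm8 had the lowest counts of the members, with 230 at the lowest.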
